A study of Mus musculus with 6 samples.

Results

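The crystallins described here are 10 genes of the mouse lens and retina, and they were found as the rows of the deposited count table whose symbol equalled *Cryaa*, *Cryab*, *Cryba1*, *Cryba2*, *Cryba4*, *Crybb1*, *Crybb2*, *Crybb3*, *Crygs* or *Crygn*. All 10 were present among the 46078 genes of that table. The 6 RNA-seq libraries came from cones that were sorted by the fluorescence of TN-XL, a calcium sensor driven by the human red opsin promoter, out of retinal explants of rd1TN-XL mice. In these mice, of mixed C57BL/6J and C3H background, a defect of *Pde6b* kills the rods, and controls and treated explants carried it alike. Explants, from which the lens had been taken off and to which the pigment epithelium stayed attached, were set up at PN19, and over the next 7 days the medium held either 10 nM Trichostatin A (TSA, an inhibitor of class I and II histone deacetylases, 3 libraries) or its solvent DMSO (control, 3 libraries). Each library pooled at least 2 explants from different animals. The sample titles and source names put the harvest at P26 in both groups, as does a culture of 7 days from PN19. The time label differs from these and runs from PN26 to PN28 over the controls and from PN29 to PN31 over the TSA samples. Under that label age and treatment cannot be told apart.

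Crystallins are the main soluble proteins of the lens, where they are packed so densely that the tissue refracts light. They form separate families. The α-crystallins αA (*Cryaa*) and αB (*Cryab*) belong to the small heat shock proteins, which hold unfolding proteins in solution without using ATP, while the β- and γ-crystallins share a βγ fold built of Greek key motifs and are structural. In the retina, crystallins of each family have been described as proteins made under stress and injury, and αB is known from Müller glia, pigment epithelium and photoreceptors.

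Of the 10 crystallins, *Cryab* was the one gene read in most libraries. It had 164 to 344 CPM (counts scaled to library totals, adjusted by TMM) in the controls, 721 and 217 in TSA replicates 1 and 2, and 0.176 in TSA replicate 3. *Cryba2* and *Crybb3* were read in TSA replicate 1 alone, apart from 2 counts of *Cryba2* in control replicate 1. The other 7 genes had between 0 and 2 counts in every library. Of the crystallins, 1 could be tested (*Cryab*), and it did not differ between TSA-treated and control cones beyond the spread of the libraries.

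**Figure D1:**
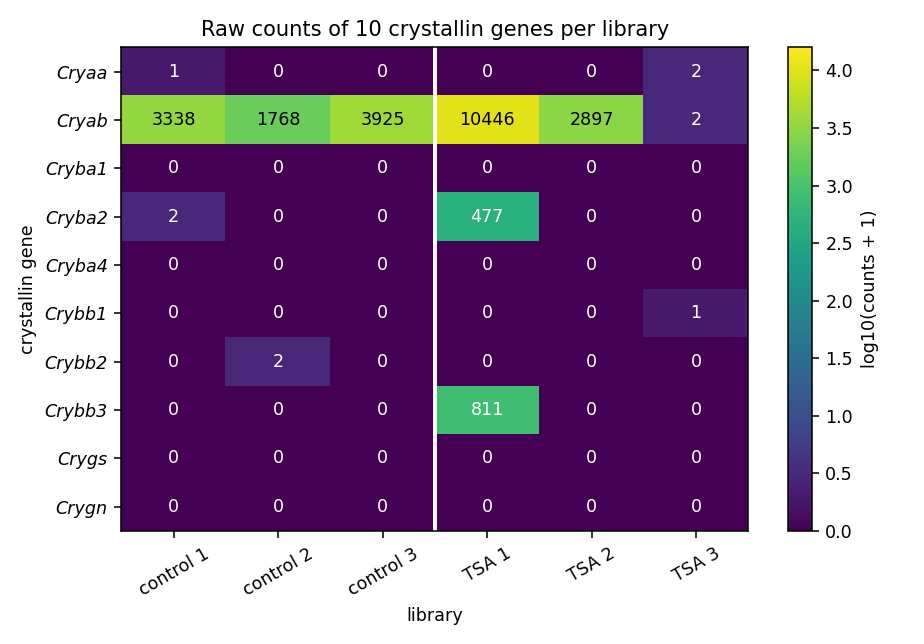
Raw counts of the 10 crystallin genes (vertical axis) in the 3 control and 3 TSA libraries (horizontal axis); each tile prints the count and is coloured by log10(counts + 1), and the white line parts the groups. *Cryab* holds 1768 to 10446 counts in 5 libraries and 2 in TSA replicate 3, while *Cryba2* (477) and *Crybb3* (811) stand out in TSA replicate 1.

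The promoters of *Cryba2* and *Crybb3* are shown because both genes were read together in a single library. RefSeq (GRCm38.p6) gave a promoter window, from 250 bases before to 50 after the start, for 9 of the 10 genes. The *Cryba2* window lies at chr1:74893094-74893393 and the *Crybb3* window at chr5:113081535-113081834, both on the minus strand. Capitals mark a match to 1 of 5 short motifs.
Cryba2: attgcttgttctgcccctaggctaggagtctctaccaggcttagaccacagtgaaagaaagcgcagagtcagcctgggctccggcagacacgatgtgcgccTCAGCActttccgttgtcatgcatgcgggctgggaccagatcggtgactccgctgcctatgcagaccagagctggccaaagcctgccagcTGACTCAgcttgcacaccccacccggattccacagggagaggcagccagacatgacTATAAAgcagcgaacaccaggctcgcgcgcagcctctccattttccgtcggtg
Crybb3: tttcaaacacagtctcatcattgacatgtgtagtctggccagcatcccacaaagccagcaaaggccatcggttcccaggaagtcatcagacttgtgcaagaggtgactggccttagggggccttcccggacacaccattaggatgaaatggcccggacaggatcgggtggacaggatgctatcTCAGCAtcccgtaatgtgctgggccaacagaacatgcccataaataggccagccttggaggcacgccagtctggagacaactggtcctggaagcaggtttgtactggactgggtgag
The motifs, searched on both strands, were the Maf response element core TGCTGA, the AP-1 site TGANTCA, the TATA box TATAAA and the paired heat shock elements GAANNTTC and TTCNNGAA. Maf proteins are transcription factors known for switching on crystallin genes in the lens. The *Cryba2* window held the Maf core on its reverse strand at position -149, the AP-1 site at -59 and the TATA box at -3, counted in bases from the start. The *Crybb3* window held the Maf core at -67, also on the reverse strand, and no other of these motifs.
The Maf core was found in 8 of the 9 crystallin windows and in 19.5% of 32851 promoter windows of the same length. The AP-1 site was in 4 of 9 (7.81% of all windows) and the TATA box in 4 of 9 (13.6%). TTCNNGAA was found in 1, that of *Cryba1* (8.52% of all windows), and GAANNTTC in 0 (7.86%). In *Crygn* and *Crygs* a match to the AP-1 site and one to the Maf core overlap each other, so that these are not separate. These are matches of letters and give no site of binding.

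The 6 libraries held 9135389 to 13650676 counts in genes, and 6690 to 10795 genes over 1 CPM. Markers of cones (12 listed genes, such as *Arr3* and *Gnat2*) took 3.04 to 5.37% of the counts, with at least 11 of 12 genes at 10 counts or more in each library, and 12 rod markers took 1.14 to 2.36%. TSA replicate 1 stood apart. Müller glia support the neurons of the retina, and their 12 listed markers took 1.48% of its counts against 0.0735 to 0.128% in the other 5 libraries, with 11 of them at 10 counts or more there. The 11 microglia markers took 0.274% against 8.96e-05 to 0.0194%. Markers of other cells peaked in TSA replicate 1 as well. The 10 bipolar cell markers took 0.375% there against 0.107 to 0.221%. Listed amacrine, ganglion, horizontal and vessel markers also had their highest share in that library. Pigment epithelium markers were highest in control replicate 2. In bulk libraries, fewer cells of a type and less RNA per cell cannot be told apart. The libraries were made from small numbers of sorted cells with a kit for ultra low RNA input, and only part of the input went into cDNA. Molecular identifiers were not used in the 17 cycles of cDNA and 11 of library PCR, and intervals and limits below therefore cover counting error alone.

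*Cryab* encodes αB-crystallin, also named HspB5, and lies on chromosome 9 from 50751325 to 50756636 (GRCm38, plus strand). Its counts were 3338, 1768 and 3925 with DMSO (replicates 1 to 3) and 10446, 2897 and 2 with TSA (replicates 1 to 3). The TSA libraries thus held both the highest and the lowest value of the series, on either side of all controls. TSA replicate 1 reached 721 CPM against 344 in the highest control, while the controls differed among themselves by 2.09-fold. TSA replicate 3 had 0.176 CPM, with a 95% exact (Clopper-Pearson) interval of 0.0213 to 0.636, against 164 (157 to 172) in the lowest control. The depth of that library, 12734097 counts in genes, was within the range of the others. It had 6974 genes over 1 CPM, against 6690 to 8837 in the controls and 10795 and 9100 in TSA replicates 1 and 2.
Control cones had 270 ± 93.8 CPM (SD, n = 3) of *Cryab* and TSA-treated cones 313 ± 369.6 (SD, n = 3). The log2 fold change was 0.21 (standard error 1.66), and edgeR gave it an adjusted p of 1 in a two-sided test. The groups overlapped. An exact permutation test of the mean CPM, two-sided, gave p = 0.9, where 3 libraries against 3 cannot go below 0.1. With a standard error of this width, even a several-fold difference was not detectable.
TSA replicate 1 supplied 78.3% of the *Cryab* counts of the TSA group. Without it the log2 fold change was -1.19 (standard error 1.95), and without TSA replicate 3 it was 0.76 (standard error 0.68). The direction therefore turned with 1 library, and neither value passed the test (adjusted p of 1 in both from edgeR). The mean of the TSA group was 469 CPM without replicate 3 and 109 CPM without replicate 1. The library with the most *Cryab* was the one with the most Müller glia and microglia counts. Bipolar, amacrine, ganglion, horizontal and vessel markers peaked there too. The part of these cells in its *Cryab* level was not tested. Among the other libraries, control replicates and TSA replicate 2 had 164 to 344 CPM of *Cryab* at a Müller share of 0.0788 to 0.128%, and TSA replicate 3 had 0.176 CPM at 0.0735%. *Apoe* and *Clu* had more counts than any other Müller marker in each library. *Rlbp1*, of the same list, was counted 181, 2 and 1 times with DMSO against 9171, 31 and 717 times with TSA. *Slc1a3* and *Aqp4*, also listed, were nearly absent from TSA replicate 3. *Slc1a3* was counted 248, 8 and 1 times against 5321, 381 and 0 times, and *Aqp4* 1, 139 and 0 times against 4084, 0 and 2 times. *Glul* was counted 659, 1390 and 1039 times against 9065, 1139 and 647 times. Similar shares thus do not mean similar values of each marker.

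**Figure D2:**
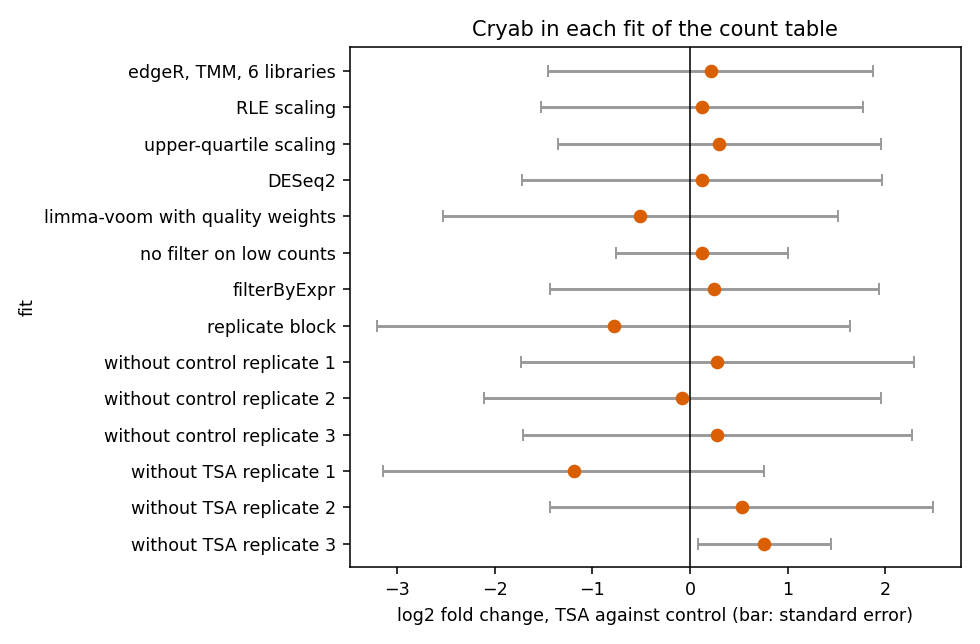
Log2 fold change of *Cryab* between TSA and control (horizontal axis, bars show the standard error) in each fit (vertical axis), from the edgeR fit on 6 libraries to the fits with another tool, scaling, filter or block and with 1 library left out. The value runs from -1.19 without TSA replicate 1 to 0.76 without TSA replicate 3, with bars that cross 0 in all fits but the last.

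*Cryaa* encodes αA-crystallin, the partner of αB in the lens, and lies on chromosome 17 from 31677807 to 31681733. It had 1 count in control replicate 1, 2 counts in TSA replicate 3 and 0 in the other 4 libraries. The α-crystallins were thus not read as a pair in these cones, since the 5 libraries with 1768 counts or more of *Cryab* had at most 1 of *Cryaa*. The library with the 2 *Cryaa* counts was the one with 2 counts of *Cryab*. With the limit set at 3 counts of the TMM-adjusted total, a count of 0 allows a level of up to 0.207 to 0.279 CPM in a library. The exact 95% interval used above is wider and reaches 0.2545 (TSA replicate 1) to 0.3432 CPM (control replicate 2) at a count of 0.

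Of the acidic β-crystallins, *Cryba2* (βA2, chromosome 1 from 74889934 to 74893143) had 477 counts in TSA replicate 1, which is 32.9 CPM with an exact 95% interval of 30.02 to 35.99. It had 2 counts in control replicate 1 and 0 in the other 4 libraries. *Cryba1*, which gives rise to βA3 and βA1, and *Cryba4* (βA4) had 0 counts in all 6 libraries. *Cryba1* lies whole within *Nufip2* on the opposite strand, and that gene had 231 to 1855 counts. Without strand, reads in exons that both share cannot be told apart, and the strand setting of the counting is not given in the sources used here.
Of the basic β-crystallins, *Crybb3* (βB3, chromosome 5 from 113075839 to 113081584) had 811 counts in TSA replicate 1, or 55.9 CPM (52.2 to 59.9), and 0 in each of the other 5 libraries. Its neighbour *Crybb2* (βB2), the start of which lies 11467 bases away on the same strand, had 2 counts in control replicate 2 and 0 elsewhere. *Crybb1* (βB1) had 1 count in TSA replicate 3. It stands head to head with *Cryba4*, with 3297 bases between their starts. Of these β-crystallin genes on chromosome 5, *Crybb3* alone had more than 2 counts, in TSA replicate 1.
The γ-crystallins *Crygs* (γS) and *Crygn* (γN), the latter known from both lens and retina, had 0 counts in all libraries. Over the 6 libraries together this allows up to 0.0414 CPM by the same limit of 3 counts.

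*Cryba2* and *Crybb3* were not tested, since the filter asked for more than 1 CPM in 2 libraries of a group. Of the 10 crystallins, 1 passed it. Per kilobase of exon, *Crybb3* reached 24.0 CPM and *Cryba2* 27.6 CPM in TSA replicate 1, levels close to each other, against 487 CPM for *Cryab* in the same library. Annotated genes within 25000 bases of either had at most 12 counts in any library, the highest being *Gm16582* near *Cryba2* in TSA replicate 1. Other genes were also read in a single library. By a threshold set after the data were seen, TSA replicate 1 held 414 genes with 100 counts or more there and at most 2 in each other library, and the other 5 libraries held 83 to 191 such genes each. The shares of glial and other markers in that library are given above, and the part of these cells in the reads of *Cryba2* and *Crybb3* was not tested.
Other genes of the lens were nearly silent. The 6 further γ-crystallins, *Cryga* to *Crygf*, had at most 1 count in any library. Several of them are close copies, between which reads cannot be assigned with confidence. Of 12 structural genes of the lens, 11 had fewer than 10 counts in every library, among them the lens channel *Mip*, the membrane protein *Lim2* and the beaded filament genes *Bfsp1* and *Bfsp2*. *Mip* and *Lim2* had 0 counts throughout. *Grifin*, a galectin-related protein of lens fibres, was the exception, with 166 counts in TSA replicate 1, 1 in TSA replicate 3 and 0 elsewhere. The library with reads of *Cryba2* and *Crybb3* was thus also the one with reads of *Grifin*, and it held 0 counts of the defining lens genes *Mip* and *Lim2*.

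**Figure D3:**
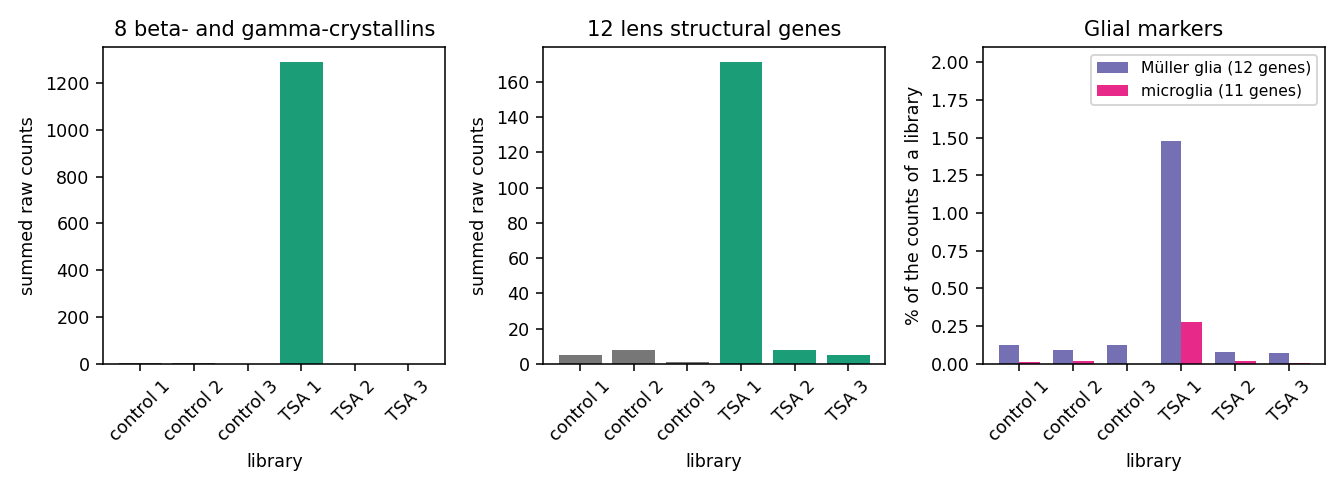
Summed raw counts of the 8 β- and γ-crystallins (left) and of 12 lens structural genes (middle), and share of the counts of a library from markers of Müller glia and microglia (right), each by library (grey control, green TSA in the first panels). All of them peak in TSA replicate 1, with 1288 crystallin counts, 171 lens structural counts and 1.48% for Müller glia. The crystallin counts there are those of *Cryba2* (477) and *Crybb3* (811) alone, and *Grifin* gives 166 of the lens structural counts.

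Over the whole table, edgeR tested 9621 genes and called 0 in either direction (0%) at a threshold of 0.05 on the adjusted p. An unadjusted p up to 0.05 was reached by 772 genes with more (8.02%) and 221 with less (2.3%) RNA in TSA. On the adjusted p, DESeq2 called 656 higher and 200 lower genes and limma-voom with quality weights 32 and 5. *Cryab*, the 1 crystallin tested, was among none of them, with adjusted p-values of 0.999 from DESeq2 and 0.946 from limma-voom and an unadjusted p of 0.902 from edgeR. The median log2 fold change over all genes tested was 0.03.

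The relatives of *Cryab* among the small heat shock proteins were compared next. *Hspb6* (Hsp20), which can form mixed assemblies with αB, stood at 712, 481 and 942 CPM with DMSO and at 693, 883 and 563 CPM with TSA, in order of replicate. No library was near 0, and the groups overlapped. The log2 fold change was 0.00 (standard error 0.43, adjusted p of 1 from edgeR), with a sign that changed with the scaling. TSA replicate 3, with 2 counts of *Cryab*, had 6399 of *Hspb6*.
*Hspb11* stood at 11.3, 37.5 and 62.4 CPM with DMSO against 70.6, 124 and 151 CPM with TSA. Its product is the intraflagellar transport protein IFT25 and it is listed by name only. All 3 TSA libraries lay above all controls, as for 6.39% of all genes tested (3.7% lay below without overlap), and the log2 fold change was 1.64 (standard error 1.05, adjusted p = 0.889 from edgeR). It did not pass the test. *Hspb2* stands head to head with *Cryab*, overlaps it by 1030 bases on the other strand and had 0 counts in all 6 libraries. As for *Cryba1*, reads in exons that both genes share cannot be told apart without strand. *Hspb1* (Hsp25) was read 62 times in TSA replicate 1 and no more than 2 times elsewhere, the same single library as *Cryba2* and *Crybb3*. Of the 9 listed genes, 6 had fewer than 10 counts everywhere, and of 2 tested 0 passed an adjusted or an unadjusted threshold, with a median log2 fold change of 0.82.

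**Figure D4:**
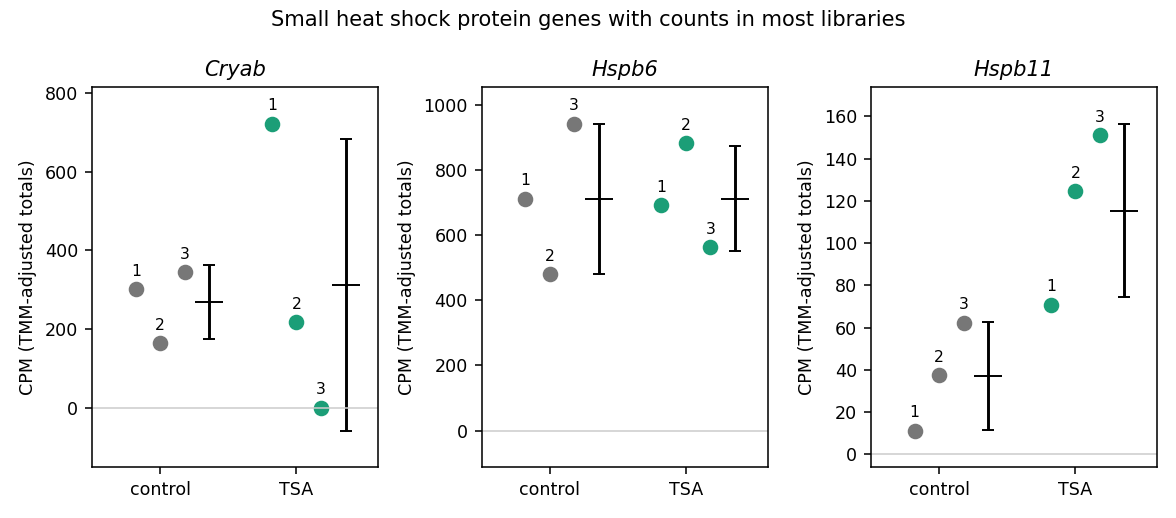
CPM of *Cryab*, *Hspb6* and *Hspb11* (vertical axes, TMM-adjusted totals) in control (grey) and TSA (green) libraries; points are libraries numbered by replicate, and the bar beside them is the mean with its SD (n = 3). *Cryab* spans 0.176 to 721 CPM in TSA, *Hspb6* stays between 481 and 942 CPM in all libraries, and *Hspb11* lies higher in each TSA library than in each control.

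The inducible chaperones and the heat shock factors, which govern the heat shock response, gave no call either. *Hspa8*, the constitutive Hsc70, stood at 447, 542 and 868 CPM with DMSO against 994, 1448 and 524 CPM with TSA, a log2 fold change of 0.67 (standard error 0.50). *Hsp90aa1*, an Hsp90, had 719 ± 295 CPM (SD, n = 3) in control and 814 ± 174 in TSA-treated cones. The mitochondrial chaperonins *Hspe1* and *Hspd1*, which share a promoter, had 351 ± 123 and 51.8 ± 33.6 CPM in control cones and 285 ± 66.6 and 86.6 ± 41.5 in TSA-treated cones. The stress-induced Hsp70 genes *Hspa1a* and *Hspa1b*, near-identical copies between which reads are uncertain, were highest in control replicate 2, with 663 and 1440 counts. They had at most 1 count in the other controls. With TSA, *Hspa1a* was counted 27, 254 and 21 times and *Hspa1b* 241, 247 and 4 times, in order of replicate. In the same order, *Hsph1* was counted 350, 186 and 864 times with DMSO against 1220, 80 and 40 times with TSA. *Dnajb1* was counted 343, 294 and 106 times against 496, 248 and 11 times. The factor *Hsf1* was counted 325, 131 and 2 times against 341, 0 and 0 times, and *Hsf2* 415, 774 and 105 times against 4, 437 and 2 times.
*Hsf4*, the heat shock factor known for driving crystallin genes in the lens, had at most 2 counts in any library, and *Bag3*, the co-chaperone that works with small heat shock proteins, had at most 2 as well. Of the 12 listed genes, 10 were tested, 3 had a fold change above 0 and 7 below, 0 reached an unadjusted p of 0.05, and the median log2 fold change was -0.37.

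**Figure D5:**
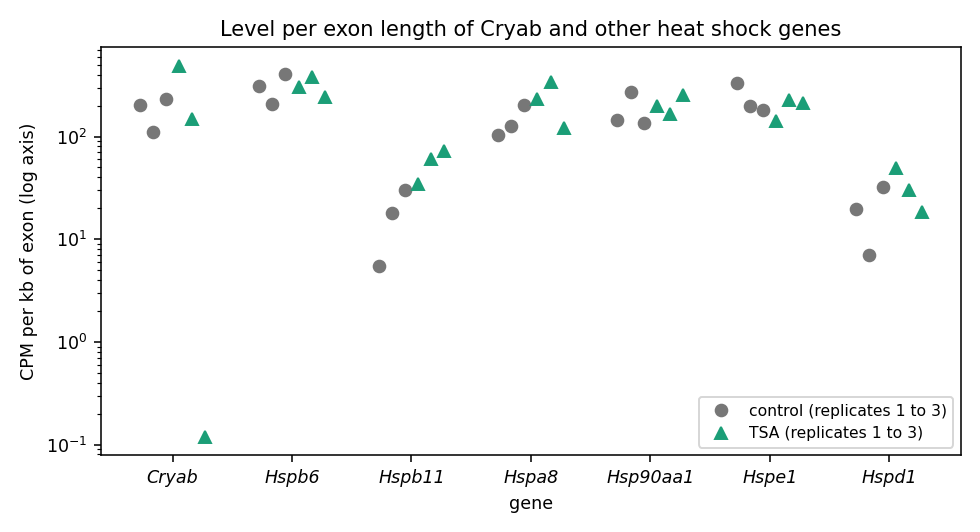
Level per kilobase of exon (vertical axis, CPM per kb on a log axis) of *Cryab* and other heat shock genes, with control libraries as grey circles and TSA libraries as green triangles, replicates 1 to 3 from left to right. *Cryab* lies at 111 to 233 CPM per kb in the controls, beside *Hspa8* at 104 to 202, and lies at 0.119 in TSA replicate 3, where the 6 other genes shown stay at 18.5 or above. Less abundant genes of the heat shock list, not shown, were also low in that library. *Hsph1* lay at 0.485 there against 2.38 to 10.4 in the controls, and *Dnajb1* at 0.302 against 2.9 to 9.67.

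Per exon length, *Cryab* stood at 204, 111 and 233 CPM per kb in control replicates 1 to 3, below *Hspb6* with 310, 209 and 410 in each of these libraries. In TSA replicate 1 the order turned, with 487 CPM per kb of *Cryab* and 301 of *Hspb6*. In TSA replicate 2 *Cryab* had 147 and *Hspb6* 384.

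Of 18 transcription factors that act on crystallin genes in the lens, 9 passed the filter and 6 had fewer than 10 counts in every library. *Maf*, the large Maf protein of lens fibres, was counted 2, 59 and 1 times with DMSO against 662, 219 and 94 times with TSA. The TSA libraries lay above the controls without overlap, as for 6.39% of all genes tested, and the log2 fold change of 3.6 (standard error 2.16) had an adjusted p of 0.835 from edgeR. *Maf* was highest in TSA replicate 1, the library with the most microglia counts. Microglia shares were 0.0146, 0.0194 and 8.96e-05% with DMSO and 0.274, 0.0176 and 0.00836% with TSA, in order of replicate. The part of microglia in the *Maf* values was not tested. The homeobox gene *Six3* was counted 686, 623 and 1166 times with DMSO against 797, 350 and 1 times with TSA, so that it was nearly absent from the same library as *Cryab*. *Meis2*, another homeobox gene, was counted 260, 1717 and 336 times against 651, 648 and 85 times. *Rara*, a retinoic acid receptor, was counted 1, 47 and 134 times with DMSO against 1, 0 and 3 times with TSA, a log2 fold change of -5.51 (standard error 2.07) with an adjusted p of 0.405 from edgeR (0.0273 before adjustment) and 0.0362 from DESeq2. Of the 9 tested, 0 were higher (8.02% of all genes tested) and 1 lower (2.3%) with an unadjusted p up to 0.05, and the median log2 fold change was -0.08. *Foxe3*, *Sox1* and *Mafa* had at most 2 counts in any library, while *Pax6*, *Prox1* and *Sox11* reached 2069, 671 and 1233 counts in their highest library.

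Genes that carry a crystallin name or fold but are not lens crystallins of the mouse were read more often. *Cryzl1*, a quinone oxidoreductase relative of ζ-crystallin, stood at 53.2, 23.4 and 30.3 CPM with DMSO against 294, 203 and 55.7 CPM with TSA. Each TSA library lay above each control, as for 6.39% of all genes tested, and the log2 fold change was 2.37 (standard error 0.95) with an adjusted p of 0.439 from edgeR (0.0398 before adjustment). A protein-coding gene model named *Atp5o*, on the same strand, overlaps it over all of its 39654 bases in the annotation, and the antisense gene *Gm10785*, with 227 counts in TSA replicate 1, overlaps part of it. Reads in exons shared with that model, and without strand those shared with *Gm10785*, cannot be told apart from its own.
*Aim1*, which encodes a βγ-crystallin domain protein, was counted 0, 184 and 771 times with DMSO against 1, 0 and 4 times with TSA, a log2 fold change of -7.57 (standard error 3.24) with an adjusted p of 0.471 from edgeR (0.0473 before adjustment) and 0.0211 from DESeq2. It overlaps *Rtn4ip1* on the opposite strand. *Crybg3*, of the same fold, is listed under 2 identifiers between which reads could be split. The first, ENSMUSG00000022723, was counted 9, 411 and 1025 times with DMSO against 483, 203 and 151 times with TSA. The second, ENSMUSG00000091562, was counted 55, 0 and 226 times with TSA and not once in a control, with an adjusted p of 0.405 from edgeR (0.0273 before adjustment) and 0.0456 from DESeq2. Of the 5 genes tested in this list, 2 were higher and 1 lower with an unadjusted p up to 0.05, which 8.02% (higher) and 2.3% (lower) of all genes tested reached, and edgeR called 0 when it was adjusted over all genes.

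The genes with a pattern most like that of *Cryab* were *Pnpla8*, a phospholipase, *Tm9sf2*, a membrane protein of endosomes, and *Phyh*, the peroxisomal phytanoyl-CoA hydroxylase. Their Pearson correlations with *Cryab* over the 6 libraries, on log2 CPM, were 0.993, 0.991 and 0.99, the highest of 6951 genes compared. *Pnpla8* was counted 127, 108 and 137 times with DMSO against 481, 202 and 0 times with TSA, and *Phyh* 2434, 1050 and 2444 times against 2635, 1069 and 0 times. All 3 share with *Cryab* their lowest value in TSA replicate 3, and the correlation describes these libraries only. *Cryab* was 1 of 6 genes with 1000 counts or more in the other 5 libraries and at most 2 in TSA replicate 3, by a threshold set after the data were seen. The other 5 were *Phyh*, *4632427E13Rik*, *Ccar1*, *Nme6* and *Hrasls*. Such genes numbered 5, 16 and 8 for control replicates 1 to 3, 0 for TSA replicate 1 and 2 for TSA replicate 2, so an abundant transcript was nearly absent from a single library in 5 of the 6 libraries.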

How the data were processed

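RNA was measured in cones sorted from control and TSA-treated explants, 3 libraries each, grouped by the sample titles. The authors preprocessed the reads with Skewer, used STAR 2.5.4a for the alignment to GRCm38 and Subread 1.6.0 for counting. The deposited table holds raw counts of 46078 genes. A second deposited table holds only the comparison made by the authors (fold changes, test statistics and p-values) and was not used beyond its gene positions, of which 14371 of 14407 had the same start in the GENCODE M21 annotation of GRCm38 used here.

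A gene entered the test if 2 libraries of either group exceeded 1 CPM (9621 did). Counts were scaled by TMM and tested, two-sided, by the quasi-likelihood method of edgeR 4.0.16 (R 4.3.3), and p-values were adjusted over these genes by Benjamini-Hochberg. The study used a permutation-based Student test on normalized values. Standard errors were taken from the coefficient and the F statistic. Depth was 9135389 to 13650676 counts. On the TMM-adjusted totals, 3 counts are 0.207 to 0.279 CPM. Alternatives were other scalings, filters, tools (DESeq2 1.42.0, limma 3.58.1), the replicate number as a block and each library left out.

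The text names the 10 crystallins, up to 4 genes of each related list (smallest p where a gene reached an unadjusted p of 0.05, otherwise the most abundant) and, for crystallins of at least 10 CPM on average, the 3 genes of highest correlation. Other genes of those lists were named after their values were seen. The crystallins and lists were chosen with earlier results of these data known.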

Additional observations from a re-analysis of the deposited data

How the results depend on the processing

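The log2 fold change of *Cryab* stayed on the same side of the threshold under every alternative run, but turned below 0 with limma-voom (-0.51), with the replicate block (-0.78), without control replicate 2 (-0.08) and without TSA replicate 1 (-1.19), and ranged from -1.19 to 0.76 over the libraries left out. The cause was not tested. *Hspb6* turned to -0.06 with RLE scaling and with DESeq2 and to -0.01 without the filter, and ranged from -0.25 to 0.11 over the libraries left out. *Hsp90aa1* ranged from -0.16 to 0.53, *Hspe1* from -0.61 to 0.00 and *Meis2* from -1.64 to 0.32 over the libraries left out, and *Crybg3* (ENSMUSG00000022723) turned to 0.85 with limma-voom. DESeq2 called *Aim1* (adjusted p = 0.0211), *Rara* (0.0362) and the second *Crybg3* identifier (0.0456), while over the other alternatives none of them passed and the adjusted p reached 1, 0.904 and 0.759.

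The count of genes higher at an adjusted p under 0.05 was 656 with DESeq2, 32 with limma-voom and 9 without the filter, against 0, and that of genes lower 200, 5 and 2. At an unadjusted p of 0.05 or less, higher genes numbered 1722 without the filter, 263 with filterByExpr, 511 with the replicate block and 312 to 750 with a library left out, against 772. Lower genes numbered 1058, 65, 110 and 108 to 273 in the same order and 383 with DESeq2, against 221. Fewer or more genes were tested under another filter (8944 and 29742). Same-numbered libraries had correlations of their deviations from the group means of -0.017, 0.0722 and 0.029, and not every library correlated best with its own number, so the replicate numbers were not taken as pairs.

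Without the filter, *Crybb3* and *Cryba2* entered the fit through TSA replicate 1, apart from 2 counts of *Cryba2* in control replicate 1, with adjusted p-values of 0.288 and 0.51 from edgeR. Without that library the summed β- and γ-crystallins of the TSA group averaged 0.044 CPM, against 29.6 with it. For the 7 crystallins of at most 2 counts, a count of 0 allows up to 0.207 to 0.279 CPM in a library by the limit of 3 counts.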

Other observations

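Crystallin-named enzymes that are lens proteins only in other animals were read unevenly from library to library. *Crym*, µ-crystallin, which binds thyroid hormone in mammals, was counted 0, 1256 and 2 times with DMSO against 2891, 392 and 1094 times with TSA (replicates 1 to 3 in order), a log2 fold change of 1.47 (standard error 2.38) with an adjusted p of 1 from edgeR. *Cryz*, ζ-crystallin, a quinone oxidoreductase, was counted 8, 918 and 2 times with DMSO against 647, 3 and 4 times with TSA and did not pass the filter. Within the controls, each of these genes thus had 1 library far above the other 2. *Pax6*, the eye field factor, was counted 837, 107 and 219 times with DMSO against 2069, 90 and 2 times with TSA. Its highest and lowest libraries, TSA replicates 1 and 3, were those of *Cryab*. These genes were chosen after their values were seen.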
